A study of Mus musculus with 12 samples.

Results

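The genes described here are 10 genes of the Notch pathway and of the choice of secretory cell fate, taken by name from the 34245 genes of the count table. They are the receptors *Notch1* and *Notch2*, the ligands *Dll1*, *Dll4* and *Jag1*, the DNA-binding effector *Rbpj*, the Hes factors *Hes1* and *Hes6*, and the secretory switches *Atoh1* and *Neurog3*. The rule that takes them goes by gene name and uses no measured value, and 10 of 10 were in the table and had enough counts to be tested in each of the 5 comparisons. RNA was sequenced from stem cells of the intestine (ISC) and enterocytes of adult villi (AE) that had been sorted from the small intestine of male C57BL/6 mice, which all carried the Lgr5-EGFP-IRES-CreERT2 allele, a knock-in that places EGFP under the *Lgr5* promoter. The 12 libraries form 4 groups of 3: young ISC, aged ISC, young AE and aged AE, with mean ages of 33 weeks in the young and 118.7 weeks in the aged cohort. ISC were the GFP-high cells of crypt suspensions and AE were villus cells with high Epcam and without staining for CD31 or CD45, in both cases after dead cells had been gated out with DAPI. A gate on Epcam takes epithelial cells of any kind, so AE also covers the secretory cells of the villus.

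In the crypt, a cell that shows Delta-type ligands on its surface activates Notch receptors on its neighbours. The cut receptor enters the nucleus, binds *Rbpj* and turns on *Hes1*, a repressor that holds down *Atoh1*. Cells that escape the signal make *Atoh1* and enter the secretory lineage of goblet, Paneth and enteroendocrine cells. A short burst of *Neurog3* in some of them starts the enteroendocrine program. Stem cells and absorptive progenitors thus stand on the Notch-active side of this switch, and secretory progenitors carry its ligands.

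The labels were checked against markers of the cell types, given as CPM (counts scaled to library size) summed over a list, after scaling by the trimmed mean of M values (TMM). The 8 stem cell markers summed to between 5503 and 7971 CPM in the ISC libraries and to between 113 and 612 CPM in the AE libraries. The 8 enterocyte markers summed to between 44138 and 76106 CPM in AE and to between 1269 and 7044 CPM in ISC. The sum of the 6 goblet cell markers was also high in AE, at 28042 to 56923 CPM against 1379 to 2226 CPM in ISC. *Muc2*, also listed as a goblet cell marker, was left out of the sum because its name had no unique match among the genes counted. *Fcgbp*, *Zg16*, *Tff3*, *Clca1* and *Agr2* were each higher in every AE library than in every ISC library. *Spink4* was not, and in aged mice it was at 192, 199 and 75.3 CPM in ISC and at 73.3, 86.1 and 82.6 CPM in AE. Library Y2 of young AE stood apart, with 612 CPM of stem cell markers and 368 CPM of proliferation markers, where the other AE libraries had at most 217 and 126 CPM. Markers of endothelium and stroma summed to at most 10.1 CPM, and 4 to 6 of the 8 were at or under the floor of 3 counts in each library. In 8 of 12 sample titles the library code contradicts the remaining words on the group, so each library stands here under the group spelled by its column in the table, which the stem cell and enterocyte markers match for cell type. Age was not checked from the values, so each comparison by age rests on the column names alone. Libraries held between 11893817 and 110794420 counts, with Y3 of young AE the deepest. In these bulk samples, fewer cells of a type and less RNA per cell cannot be told apart.

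The first question was where each gene lies on the way from stem cell to villus. AE were compared with ISC at each age with edgeR's quasi-likelihood test and Benjamini-Hochberg adjustment over all genes, and a gene was called at an FDR under 0.05. In young mice 2 of the 10 genes were higher in AE and 6 were lower, and in aged mice 2 were higher and 7 were lower. Over all genes tested, 27.7% of 16681 were called higher and 25.4% lower in young mice, and 30% of 15855 were called higher and 34.1% lower in aged mice. The median log2 fold change of the 10 genes was -0.68 in young and -0.78 in aged mice, where the median over all genes tested was 0.15 and -0.13.

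**Figure D1:**
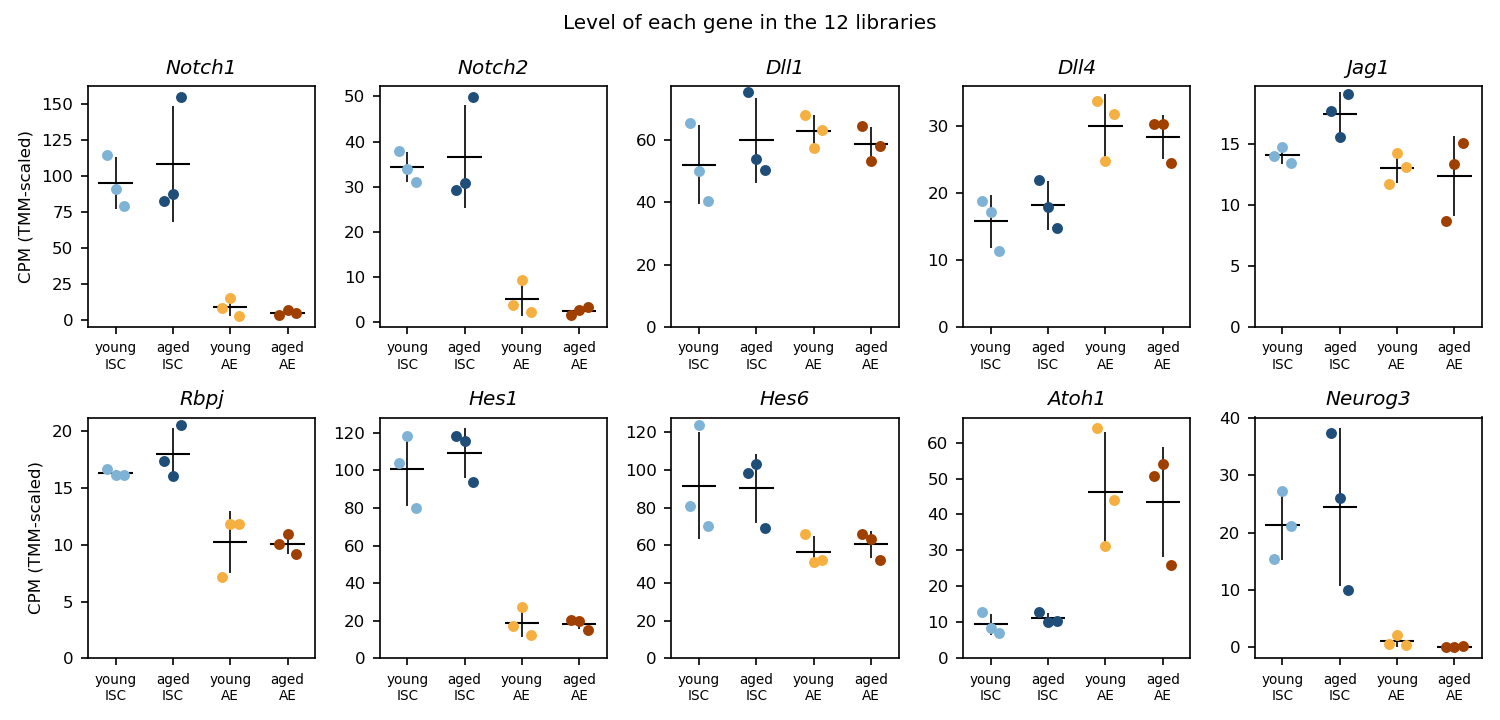
Level of the 10 genes in the 12 libraries, in CPM after TMM scaling on a linear axis. Points are libraries, horizontal lines are group means and vertical lines are 1 SD (n = 3). *Notch1* lay between 79.1 and 155 CPM in ISC and between 3.03 and 15.4 CPM in AE, while *Atoh1* lay between 7.07 and 12.8 CPM in ISC and between 26.0 and 64.1 CPM in AE.

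The receptors, which stem cells use to receive the signal, were lower in AE. *Notch1*, at 2:26457903-26516663 on the minus strand of GRCm38, was at 114, 91.1 and 79.1 CPM in young ISC Y1, Y2 and Y3 and at 82.7, 87.7 and 155 CPM in aged ISC O1, O3 and O5. In young AE *Notch1* was at 8.51, 15.4 and 3.03 CPM, and in aged AE at 3.33, 6.81 and 4.91 CPM. The lowest ISC library was thus above the highest AE library at both ages. *Notch1* was 10.9-fold lower in young AE (log2 fold change -3.44, SE 0.53, edgeR FDR 0.0011) and 22.5-fold lower in aged AE (log2 fold change -4.49, SE 0.34, edgeR FDR 2.92e-06).

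*Notch2*, at 3:98013527-98150361 on the plus strand, followed the same order. It was at 37.9, 34.0 and 31.2 CPM in young ISC, at 29.2, 30.9 and 49.9 CPM in aged ISC, at 3.76, 9.35 and 2.31 CPM in young AE and at 1.62, 2.69 and 3.49 CPM in aged AE. Again no AE library reached the ISC range. The log2 fold change from ISC to AE was -2.79 (SE 0.475, edgeR FDR 0.00174) in young mice and -3.90 (SE 0.319, edgeR FDR 4.48e-06) in aged mice. Among AE libraries, Y2 of young AE held the highest level of both receptors, and it is also the library with the most stem cell and proliferation markers. Without it, the log2 fold change in young mice was -4.22 for *Notch1* and -3.65 for *Notch2*. The part of these markers in the levels of AE was not tested.

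Of the ligands, *Dll4* was higher in AE at both ages, *Jag1* was called lower in aged mice and *Dll1* was not called. *Dll4*, at 2:119325784-119335962 on the plus strand, was at 18.8, 17.2 and 11.3 CPM in young ISC and at 33.7, 24.7 and 31.8 CPM in young AE. In aged mice it was at 22.0, 17.9 and 14.7 CPM in ISC and at 30.3, 30.3 and 24.5 CPM in AE. The cell types did not overlap at either age. *Dll4* was 1.91-fold higher in young AE (log2 fold change 0.93, SE 0.237, edgeR FDR 0.011) and 1.48-fold higher in aged AE (log2 fold change 0.57, SE 0.193, edgeR FDR 0.0257). The aged call was lost with upper-quartile scaling (log2 fold change 0.48, FDR 0.054) and without any of 4 single libraries, O3 or O5 of ISC and O1 or O3 of AE.

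*Dll1*, at 17:15367354-15376872 on the minus strand, had levels of the same order in both cell types. In young mice it was at 65.7, 50.3 and 40.6 CPM in ISC and at 68.1, 57.6 and 63.4 CPM in AE. In aged mice it was at 75.7, 54.0 and 50.4 CPM in ISC and at 64.6, 53.3 and 58.1 CPM in AE. The groups overlapped at both ages. The log2 fold change was 0.27 (95% interval -0.19 to 0.73, edgeR FDR 0.276) in young and -0.11 (95% interval -0.51 to 0.30, edgeR FDR 0.623) in aged mice.

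*Jag1*, a ligand of the Serrate type at 2:137081456-137116644 on the minus strand, was at 14.0, 14.8 and 13.4 CPM in young ISC and at 11.7, 14.2 and 13.1 CPM in young AE. These groups overlapped, and the log2 fold change was -0.11 (95% interval -0.54 to 0.31, edgeR FDR 0.633). In aged mice *Jag1* was at 17.7, 15.5 and 19.1 CPM in ISC and at 8.66, 13.4 and 15.1 CPM in AE, with the lowest ISC library just above the highest AE library. It was called lower in aged AE (log2 fold change -0.57, SE 0.225, edgeR FDR 0.0479), and that call was lost with DESeq2 (FDR 0.0983), RLE scaling (FDR 0.0848) and filterByExpr (FDR 0.0592), and without any of 5 single libraries, the 3 of ISC and O1 or O3 of AE.

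*Rbpj*, the factor through which the cut receptor acts on DNA, lies at 5:53466152-53657362 on the plus strand. It was at 16.6, 16.1 and 16.1 CPM in young ISC and at 7.12, 11.8 and 11.9 CPM in young AE. In aged mice it was at 17.4, 16.0 and 20.5 CPM in ISC and at 10.1, 10.9 and 9.16 CPM in AE. Each AE library was below each ISC library of its age. The fall was 1.58-fold in young (log2 fold change -0.66, SE 0.24, edgeR FDR 0.0468) and 1.87-fold in aged mice (log2 fold change -0.91, SE 0.186, edgeR FDR 0.00181). The young call was lost with RLE scaling (FDR 0.0548), with no filter on low counts (FDR 0.0542), and without any of 4 single libraries, the 3 of ISC and Y1 of AE.

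*Hes1*, the repressor that Notch signalling turns on, fell with the receptors. It lies at 16:30064384-30067796 on the plus strand. Its level was 103.9, 118.6 and 79.7 CPM in young ISC, 118, 116 and 93.9 CPM in aged ISC, 17.1, 27.1 and 12.5 CPM in young AE and 20.6, 19.6 and 15.3 CPM in aged AE. The gap between cell types was wider than the spread within any group. *Hes1* was 5.38-fold lower in young AE (log2 fold change -2.43, SE 0.304, edgeR FDR 0.000488) and 6.19-fold lower in aged AE (log2 fold change -2.63, SE 0.183, edgeR FDR 1.81e-06).

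*Hes6*, a relative of *Hes1* that is known to oppose it, fell by less. It lies at 1:91411483-91414038 on the minus strand. It was at 80.6, 124 and 70.2 CPM in young ISC and at 66.0, 51.3 and 52.2 CPM in young AE, and at 98.5, 103 and 69.2 CPM in aged ISC and 65.9, 63.3 and 52.2 CPM in aged AE. The ranges came close to each other but did not overlap. The fall was 1.62-fold in young (log2 fold change -0.70, SE 0.236, edgeR FDR 0.0356) and 1.57-fold in aged mice (log2 fold change -0.65, SE 0.191, edgeR FDR 0.0132). The young call was lost without Y1 of ISC (FDR 0.0517), Y2 of ISC (FDR 0.131) or Y3 of AE (FDR 0.0503), and the aged call without O5 of AE (FDR 0.0507).

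The secretory switches went opposite ways, and the 250 bases before the start of each are shown for that reason. They are given 5′ to 3′ on the strand of the gene from RefSeq on GRCm38.p6, *Atoh1* at chr6:64728875-64729124 (plus strand) and *Neurog3* at chr10:62132840-62133089 (plus strand), with capitals marking the letters CAGCTG, an E-box of the kind that basic helix-loop-helix factors such as *Atoh1* bind.
Atoh1: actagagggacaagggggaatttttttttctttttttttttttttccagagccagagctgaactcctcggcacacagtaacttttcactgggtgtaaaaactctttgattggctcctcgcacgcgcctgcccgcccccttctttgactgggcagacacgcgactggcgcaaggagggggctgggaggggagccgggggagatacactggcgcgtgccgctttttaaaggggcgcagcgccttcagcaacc
Neurog3: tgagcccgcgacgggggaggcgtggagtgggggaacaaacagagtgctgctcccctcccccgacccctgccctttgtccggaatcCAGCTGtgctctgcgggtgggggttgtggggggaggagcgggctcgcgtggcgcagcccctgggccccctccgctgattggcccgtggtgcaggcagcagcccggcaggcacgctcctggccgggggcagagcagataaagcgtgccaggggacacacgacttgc
The window of *Neurog3* held 1 such E-box, with its first base at position -165 from the start, and the window of *Atoh1* held none. The other windows that held it, cut here to 36 bases around the match, were those of *Dll1* (chr17:15377044-15377079), *Jag1* (chr2:137116582-137116617) and *Hes6* (chr1:91414189-91414224), all on the minus strand.
Dll1: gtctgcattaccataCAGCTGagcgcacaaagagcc
Jag1: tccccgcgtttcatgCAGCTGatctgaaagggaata
Hes6: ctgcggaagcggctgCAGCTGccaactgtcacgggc
CAGCTG reads the same on both strands and stood in 13.0% of all 32851 windows of this length. The N-box CACNAG, the site that *Hes1* is known to bind, was searched on both strands and stood in 36.7% of all windows, and it was found in those of *Notch1*, *Notch2* and *Dll4*. TGGGAA, the core of the site of *Rbpj*, stood in 21.6% of all windows and was found in that of *Rbpj* alone. A match of letters is a description and not a site in use. A window was given for 9 of the 10 genes, all but *Hes1*. Each window ends at the start given by RefSeq, which can differ from the gene coordinates given here. That start lies inside those coordinates for *Notch1*, *Notch2*, *Jag1* and *Rbpj*, and upstream of them for *Dll1*. The windows of *Notch1* and *Rbpj* lie wholly within the gene coordinates, as does the match of *Jag1*.

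*Atoh1*, the factor that commits a cell to the secretory lineage, rose in AE. It lies at 6:64729125-64731245. It was at 12.8, 8.52 and 7.07 CPM in young ISC and at 64.1, 31.1 and 44.0 CPM in young AE. In aged mice it was at 12.8, 10.1 and 10.4 CPM in ISC and at 50.6, 54.0 and 26.0 CPM in AE. The lowest AE library was above the highest ISC library at both ages. *Atoh1* was 4.90-fold higher in young AE (log2 fold change 2.29, SE 0.327, edgeR FDR 0.000806) and 3.74-fold higher in aged AE (log2 fold change 1.90, SE 0.272, edgeR FDR 0.000177). Within AE its level moved with the goblet cell markers: Y1 of young AE had the most of both, with 56923 CPM of goblet markers, and Y2 of young AE and O5 of aged AE had the least of both, with 28042 and 32972 CPM. The part of goblet cells in the rise of *Atoh1* was not tested.

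*Neurog3*, the factor that starts the enteroendocrine program, was close to the detection floor in AE. It lies at 10:62133090-62134763. In young ISC it was at 15.3, 27.3 and 21.2 CPM and in aged ISC at 37.3, 26.0 and 9.95 CPM. In young AE it was at 0.573, 2.07 and 0.299 CPM, from 7, 25 and 25 counts, and the 3 aged AE libraries held 0, 0 and 2 counts. *Neurog3* was 25.2-fold lower in young AE (log2 fold change -4.66, SE 0.676, edgeR FDR 0.000861). In aged mice, where each AE library was at or under the floor of 3 counts, 2036 counts in ISC stood against 2 in AE, a ratio of 409 after scaling (exact 95% interval 113 to 3383, counting error only), with an edgeR FDR of 1.37e-05. The 8 enteroendocrine cell markers summed to between 2588 and 7711 CPM in AE and to between 242 and 754 CPM in ISC. They did not all go one way in aged mice, where Chga was at 907 to 1709 CPM in AE and 37.8 to 118.9 CPM in ISC, while Gcg was at 6.54 to 11.3 CPM in AE and 23.4 to 29.0 CPM in ISC.

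**Figure D2:**
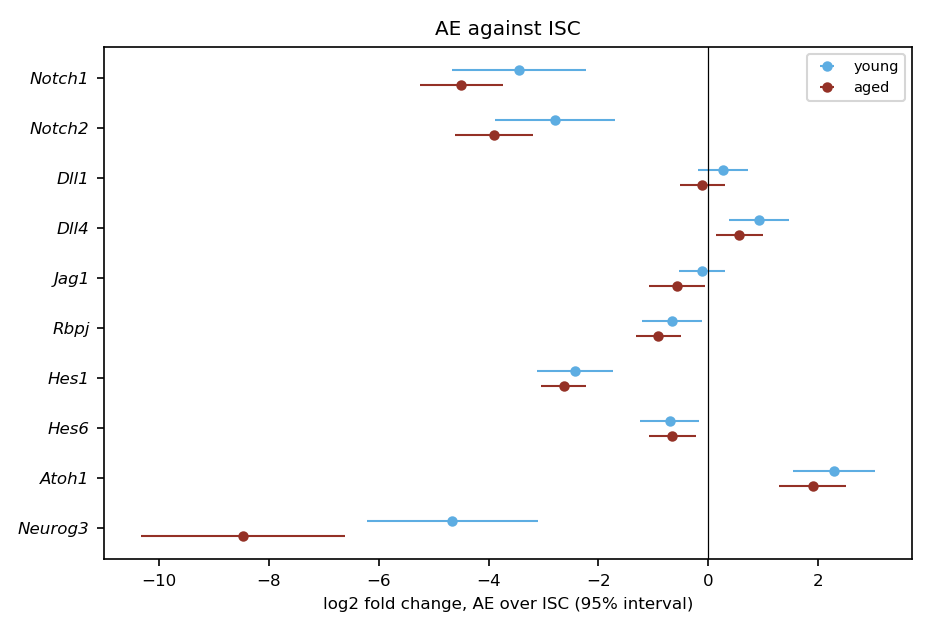
Log2 fold change of AE over ISC for the 10 genes in young and aged mice. Points are estimates of edgeR and lines are 95% intervals (3 against 3 libraries). *Atoh1* and *Dll4* lie right of 0 at both ages, *Dll1* spans 0 at both, and the estimate of *Neurog3* in aged mice (-8.48) rests on AE libraries at or under the floor of 3 counts.

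Levels of different genes were compared per kilobase of exon. In young ISC the order of the group means was *Hes6*, *Hes1*, *Neurog3*, *Dll1*, *Notch1*, *Atoh1*, *Dll4*, *Notch2*, *Jag1* and *Rbpj*, from 50.7 CPM per kb for *Hes6* to 1.28 CPM per kb for *Rbpj*. *Hes6* and *Hes1* overlapped, as did *Neurog3* and *Dll1*, and *Notch1* with *Atoh1*, *Atoh1* with *Dll4*, and *Dll4* with *Notch2*. In young AE the order was *Hes6*, *Atoh1*, *Dll1*, *Hes1*, *Dll4*, *Jag1*, *Rbpj*, *Notch1*, *Neurog3* and *Notch2*. *Hes6* led at 31.2 CPM per kb, *Atoh1* had moved to the second place at 21.9 CPM per kb, and the last 4 overlapped, at 0.805 CPM per kb or less. The libraries of *Atoh1* overlapped those of *Hes6* and of *Dll1*, and *Hes1* overlapped *Dll4*. In aged mice the order in ISC began with *Hes1* at 53.6 and *Hes6* at 49.9 CPM per kb, and that in AE ended with *Notch1* at 0.352, *Notch2* at 0.241 and *Neurog3* at 0.0434 CPM per kb. At both ages the ligands *Dll1* and *Dll4* thus exceeded both receptors per kilobase in AE. In ISC *Dll1* did so too, with means of 12.4 (young) and 14.2 (aged) CPM per kb against 6.66 and 7.61 for *Notch1*. *Dll4* was below *Notch1* in ISC at both ages. Its ISC libraries overlapped those of *Notch2*, with a higher mean at both ages.

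Over the 12 libraries, the genes whose log2 CPM was most like that of each member were sought among 12642 genes with a mean of at least 1 CPM. *Notch1* was most like *Cenpf* and *Olfm4* (Pearson r 0.996 for both), *Notch2* like *Serinc3* and *Cep192*, and *Hes1* like *Nrtn* (r 0.997). *Olfm4* is a marker of crypt stem cells and *Cenpf* a protein of the mitotic centromere. *Dll4* was most like *Spdef* (r 0.977), a factor of goblet and Paneth cell maturation, and then *Rap1gap*. *Atoh1* was most like *Ttc39a* (r 0.987) and *Xkr8*, *Neurog3* like *Tbrg4* (r 0.990) and *Haus8*, *Rbpj* like *Tango6* and *Fubp3* (r 0.976 for both), and *Hes6* like *Tmem237* (r 0.949) and *Mphosph8*. The highest values for *Dll1*, with *Tldc1* (r 0.877) and *Col11a2*, and for *Jag1*, with *Slc25a25* and *Pdik1l* (r 0.901 for both), were lower. Within the 10 genes, the highest value was that of *Notch1* with *Notch2* (r 0.991), and *Dll4* with *Atoh1* had 0.944. The points share 2 cell types, and these values largely follow the step from ISC to AE.

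The surrounding pathway was described with a list of 45 other Notch genes, of which 44 were tested in young and 42 in aged mice. In young mice 12 were higher in AE and 13 lower, or 10 and 8 without library Y2 of young ISC, and in aged mice 14 were higher and 12 lower. These counts are near the shares over all genes tested. Those were 27.7% higher and 25.4% lower in young mice, and 30% higher and 34.1% lower in aged mice. The median log2 fold change of the list was 0.22 in young and 0.15 in aged mice. At both ages 12 genes were called higher and 10 lower. Of the genes on the list, 8 had a group at or under the floor of 3 counts in each library, and for those that are named a bound or a ratio with its counting interval is given.

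Receptor glycosylation split by enzyme. Of the 5 genes on the list, *Pofut1* and *Poglut1*, which add the first sugars to the receptor, and *Lfng*, a Fringe enzyme that lengthens one of them, were lower in AE at both ages, and *Rfng*, another Fringe enzyme, was higher at both. *Lfng* was at 19.9 to 28.0 CPM in young ISC and 2.42 to 4.55 CPM in young AE, a log2 fold change of -2.81 (SE 0.302, edgeR FDR 0.000285). In aged mice it was at 26.7 to 36.0 CPM in ISC and 2.18 to 3.59 CPM in AE (log2 fold change -3.45, SE 0.238, edgeR FDR 1.72e-06). These ranges lay far apart.

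Of the proteases that cut the receptor, *Furin*, *Ncstn* and *Aph1b* were called higher in AE at both ages, *Psen2* was called lower in aged mice, and *Adam10* and *Adam17*, which make the first cut at the cell surface, were called at neither age. *Ncstn*, a subunit of gamma-secretase, had log2 fold changes of 0.86 (SE 0.149, edgeR FDR 0.00183) in young and 0.89 (SE 0.149, edgeR FDR 0.000505) in aged mice. Of the 4 ligases that act on the ligands, *Mib2*, *Neurl1a* and *Neurl1b* were higher in AE at both ages and *Mib1* lower.

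Among the targets, *Hes2* rose and *Hes5* and *Nrarp* fell. *Hes2*, a further Hes factor, was at 2.103, 1.363 and 3.37 CPM in young ISC and at 40.3, 46.7 and 56.0 CPM in young AE, and at 0.533, 0.216 and 0.755 CPM in aged ISC and 57.2, 57.9 and 55.8 CPM in aged AE. The log2 fold change was 4.38 (SE 0.341, edgeR FDR 0.000121) in young and 6.70 (SE 0.297, edgeR FDR 3.44e-07) in aged mice. *Nrarp*, which curbs Notch signalling, had log2 fold changes of -1.55 and -2.01. *Hes5*, a target best known from the nervous system, held 14 counts in young ISC and 0 in young AE, at least 1.62-fold lower with the floor of 3 counts in each library, and 39 against 1 counts in aged mice (ratio 15.7, exact 95% interval 2.65 to 635).

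The remaining genes that the naming rule picked were at the ends of the list. *Dlk1*, a ligand-like protein, had 0 counts in each ISC library and 4.83, 2.48 and 1.423 CPM in young AE and 0.952, 0.538 and 0.218 CPM in aged AE. It was at least 16.5-fold higher in young AE and at least 4.50-fold higher in aged AE. *Dll3*, a ligand that does not activate Notch in trans, had 0 counts in each AE library and 20 counts over young and 29 over aged ISC, at least 2.20-fold and at least 1.24-fold lower in AE. *Numb*, an inhibitor of Notch that is handed to 1 daughter cell, was at 53.8 to 70.5 CPM in young ISC and 169 to 195 CPM in young AE (log2 fold change 1.61, SE 0.169, edgeR FDR 0.000267). In aged mice the log2 fold change of *Numb* was 1.75. *Maml2* and *Snw1*, nuclear partners of *Rbpj*, were lower in AE at both ages, and *Dtx4*, a Deltex ligase, was lower at both (log2 fold changes -2.37 and -3.00).

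The 24 other factors of the secretory and tuft lineages, called secretory factors here, were described in the same way. In young mice 9 were higher in AE and 2 lower, or 10 and 4 with the replicate block, 13 and 2 with DESeq2, and 7 and 6 without library Y1 of young AE. In aged mice 7 were higher and 6 lower. Over all genes tested, 27.7% were called higher and 25.4% lower in young mice, and 30% higher and 34.1% lower in aged mice. The median log2 fold change of the 24 factors was 0.91 in young and 0.17 in aged mice. That of all genes tested was 0.15 in young and -0.13 in aged mice. At both ages 6 were called higher, namely *Klf4*, *Lmx1a*, *Neurod1*, *Pax6*, *Spdef* and *Xbp1*, and 2 lower, namely *Sox9* and *Sox4*.

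*Klf4*, a factor of goblet cell and villus differentiation, was at 28.3 to 37.4 CPM in young ISC and 360 to 406 CPM in young AE. Its log2 fold change was 3.48 (SE 0.189, edgeR FDR 9.89e-05) in young and 4.07 (SE 0.243, edgeR FDR 8.4e-07) in aged mice. *Neurod1*, which acts just after *Neurog3* in the enteroendocrine lineage, was at 6.44, 8.18 and 8.25 CPM in young ISC and at 104, 33.8 and 42.3 CPM in young AE. It thus moved against *Neurog3*, with log2 fold changes of 2.97 (SE 0.427, edgeR FDR 0.000829) in young and 2.51 (SE 0.289, edgeR FDR 4.09e-05) in aged mice. *Lmx1a*, a factor of serotonin-making enteroendocrine cells, had log2 fold changes of 3.12 and 3.34. Library Y1 of young AE had the highest level of *Neurod1* and also the most enteroendocrine markers, at 7711 CPM.

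*Sox9* and *Sox4*, factors of crypt progenitors, fell. *Sox9* was at 84.8 to 143 CPM in young ISC and 7.39 to 22.9 CPM in young AE (log2 fold change -2.80, SE 0.415, edgeR FDR 0.000933), and its log2 fold change in aged mice was -3.28 (edgeR FDR 4.7e-07). *Sox4* had log2 fold changes of -2.49 and -3.26. In aged but not in young mice *Foxa2*, *Bhlha15*, *Nkx2-2* and *Rfx3* were called lower and *Gfi1* higher, and in young but not in aged mice *Rfx6* and *Myt1* were called higher. The difference between ages was tested for each of these factors and was called by edgeR for 0 of the 24. The tuft cell factors *Pou2f3* and *Gfi1b* were called at neither age.

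**Figure D3:**
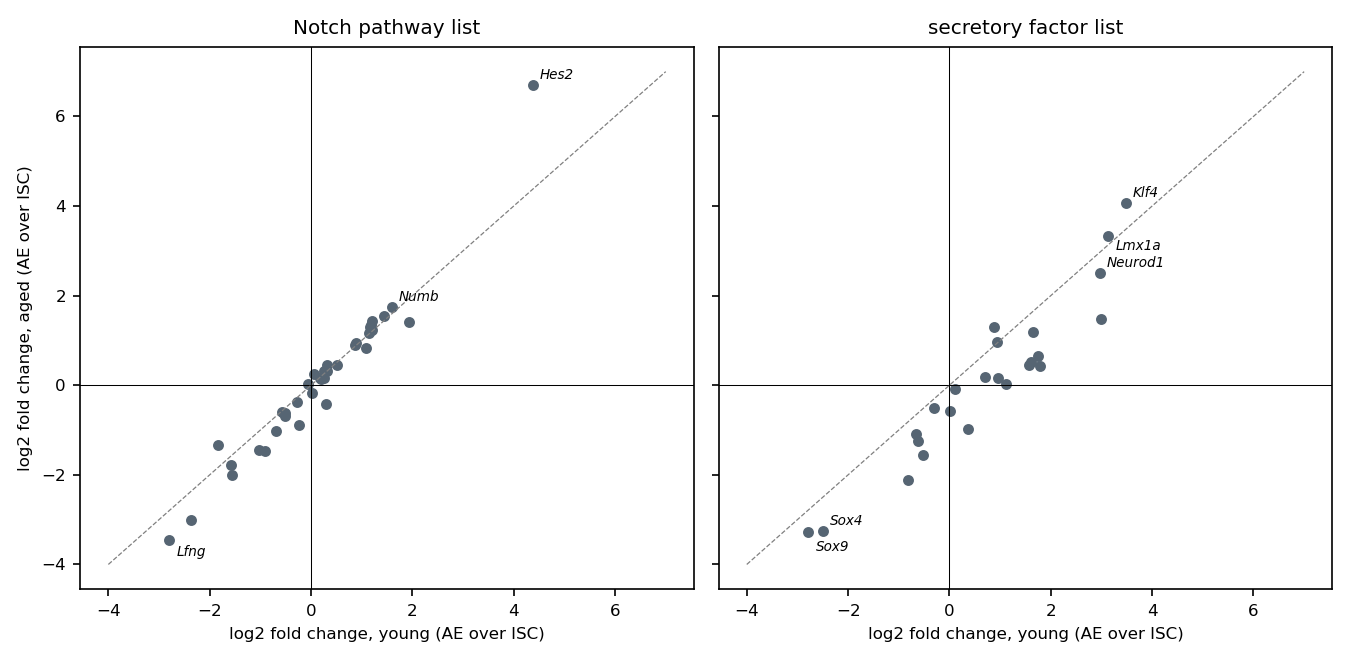
Log2 fold change of AE over ISC in young mice (horizontal axis) and aged mice (vertical axis) for the other Notch pathway genes (left, 36 genes) and the secretory factors (right, 24 genes). Points are genes, the dashed line marks equal values, and 8 Notch pathway genes with a group at or under the floor of 3 counts are left out. *Hes2* lies farthest up on the left at 4.38 and 6.70, and *Sox9* and *Sox4* lie lowest on the right.

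The second question was whether age changes the pathway within a cell type. In ISC 0 of the 10 genes were called by edgeR and 0 by DESeq2, and 0 had an unadjusted P under 0.05. Over all 15552 genes, edgeR called 0% and DESeq2 called 11 genes higher and 47 lower. The log2 fold changes of the 10 genes, aged over young, ran from -0.01 for *Hes6* to 0.32 for *Jag1*, and 9 of them were above 0. Their median was 0.21, and that of all genes tested was 0.01.

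*Jag1* was the only one of the 10 genes whose 3 aged and 3 young ISC libraries did not overlap, where 8.86% of all genes tested did not overlap. Its aged libraries, at 15.5 to 19.1 CPM, lay above the young ones, at 13.4 to 14.8 CPM, and the log2 fold change was 0.32 (95% interval -0.05 to 0.69, edgeR P 0.0835, FDR 1.00). *Hes1*, at 0.13 (95% interval -0.28 to 0.53), and *Rbpj*, at 0.15 (95% interval -0.22 to 0.52), had intervals that include 0. *Neurog3* had the widest interval in ISC, -0.74 to 1.16 around 0.21, and its aged libraries were both the highest (O1, 37.3 CPM) and the lowest (O5, 9.95 CPM) of the 6. Without O1 its log2 fold change was -0.24. *Notch1* and *Notch2* were highest in O5 of aged ISC, at 155 and 49.9 CPM, and without that library their log2 fold changes were -0.14 and -0.18 in place of 0.20 and 0.10. O5 was also the ISC library with the most stem cell markers, at 7971 CPM, which was not tested.

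In AE too, 0 of the 10 genes were called by edgeR and 0 by DESeq2. Over all 16265 genes, edgeR called 0% and DESeq2 called 12 genes higher and 6 lower. The log2 fold changes of the ligands, *Rbpj*, *Hes1*, *Hes6* and *Atoh1* lay between -0.08 and 0.12. That of *Dll1* was -0.08 (95% interval -0.41 to 0.24) and that of *Hes6* was 0.12 (95% interval -0.25 to 0.49). *Atoh1* had a wider interval, -0.79 to 0.66 around -0.07.

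The receptors in AE had lower means in aged mice, at 5.02 ± 1.74 CPM (SD, n = 3) against 8.97 ± 6.19 CPM for *Notch1* and at 2.60 ± 0.94 CPM against 5.14 ± 3.72 CPM for *Notch2*. The groups overlapped for both, and the log2 fold changes were -0.80 (95% interval -2.04 to 0.45, edgeR FDR 0.833) and -0.95 (95% interval -2.22 to 0.32, edgeR FDR 0.833). These values rest on Y2 of young AE, the library rich in stem cell markers. Without it they were -0.13 for *Notch1* and -0.17 for *Notch2*.

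**Figure D4:**
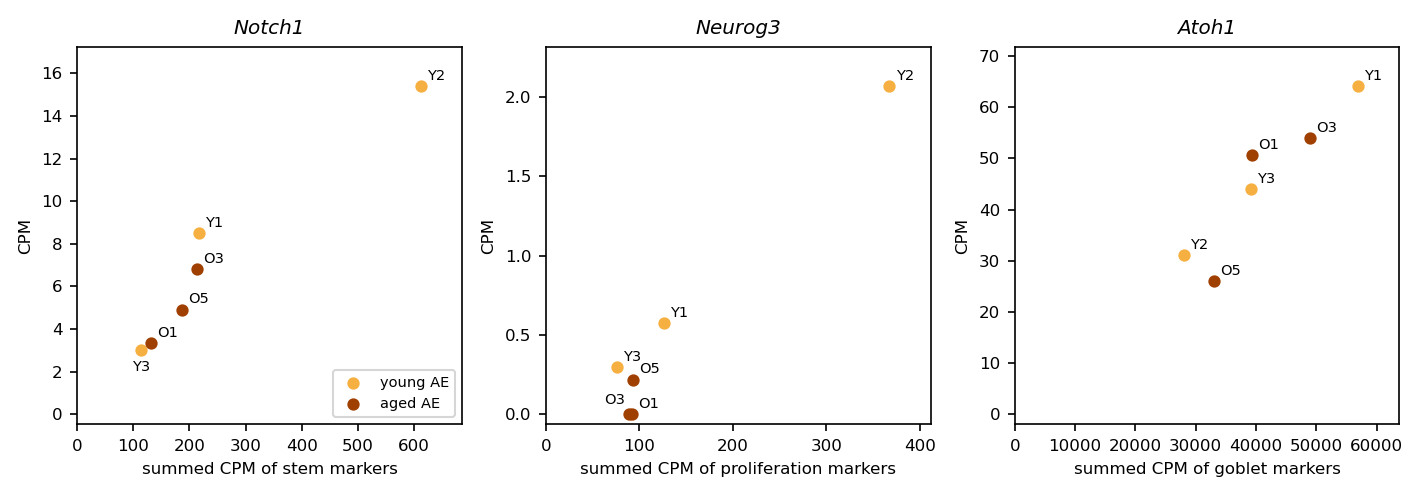
Level in the 6 AE libraries of *Notch1* against the summed stem cell markers, *Neurog3* against the summed proliferation markers and *Atoh1* against the summed goblet cell markers, all in CPM on linear axes. Each point is 1 library with its code, and Y2 of young AE lies at 612 CPM of stem cell and 368 CPM of proliferation markers with the most *Notch1* and *Neurog3*, while Y1 of young AE has the most goblet markers and *Atoh1*.

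*Neurog3* was the 1 gene of the 10 with an unadjusted P under 0.05 in AE, which 809 of the 16265 genes tested had. It was also the only one whose aged and young AE libraries did not overlap, where 10.9% of all genes tested did not overlap. The 3 young libraries held 57 counts and the 3 aged ones 2, a ratio of 8.14 after scaling (exact 95% interval 2.15 to 68.9, counting error only). The test across all genes gave P 0.0231 and FDR 0.833. The counts are few: the lowest young library, Y3, stood at 0.299 CPM, between the floors of 3 counts in the aged libraries, which were 0.285, 0.269 and 0.327 CPM. The highest, Y2, was again the library with the most proliferation markers, and without it P was 0.113.

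**Figure D5:**
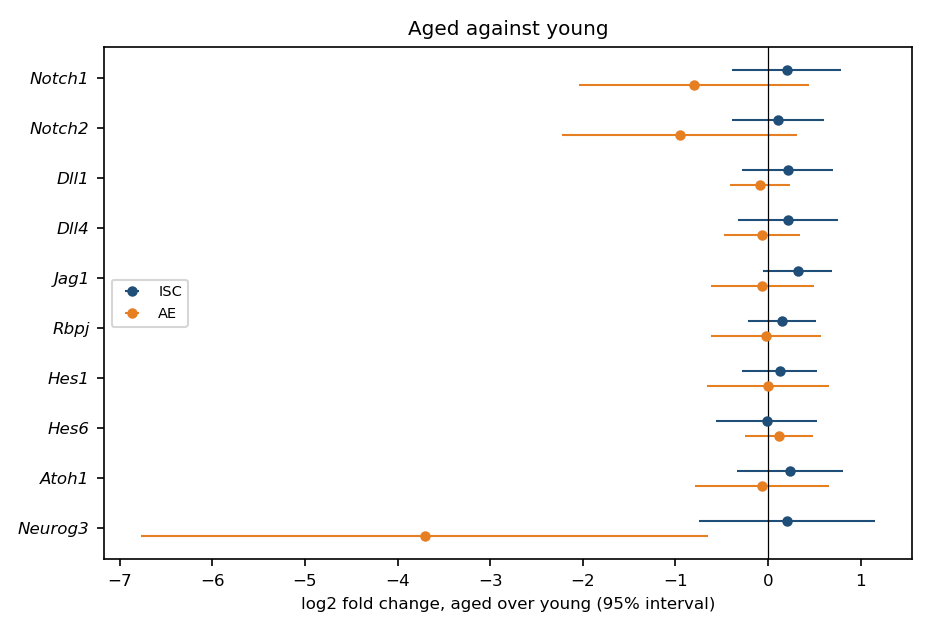
Log2 fold change of aged over young for the 10 genes in ISC and AE. Points are estimates of edgeR and lines are 95% intervals (3 against 3 libraries). The intervals of 10 genes in ISC and of 9 in AE include 0, and that of *Neurog3* in AE (-6.77 to -0.64) rests on aged libraries with 0, 0 and 2 counts.

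The third question was whether the effect of age differs between the cell types. In a fit over the 12 libraries 0 of the 10 genes were called by edgeR and 0 by DESeq2, where edgeR called 0.00575% of 17377 genes, a single gene that is neither one of the 10 nor on either list, or 21 genes with the replicate block. The log2 difference, age effect in AE minus that in ISC, ran from -1.03 for *Notch2* to 0.12 for *Hes6* among 9 of the genes. *Neurog3* stood outside that range, at -3.72 (SE 1.48, edgeR P 0.0262, FDR 1.00). It was the 1 gene of the 10 with an unadjusted P under 0.05, which 757 of the 17377 genes tested had.

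Neither list gave a call by age. In ISC 0 of 40 other Notch genes and 0 of 24 secretory factors were called by edgeR, in AE 0 of 40 and 0 of 24, and for the difference 0 of 44 and 0 of 24. An unadjusted P under 0.05 was reached by 1 and 0 genes in ISC, 1 and 1 in AE, and 1 and 1 for the difference. Over all genes tested, 695 of 15552 reached it in ISC, 809 of 16265 in AE and 757 of 17377 for the difference. The median log2 fold change in AE was 0.01 for the Notch genes and -0.46 for the secretory factors, where all genes had -0.04, and in ISC it was 0.02 and 0.16.

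*Hes2* had the lowest P of the Notch list in ISC. Its aged libraries, at 0.216 to 0.755 CPM, were below the young ones, at 1.36 to 3.37 CPM (log2 fold change -2.14, SE 0.531, edgeR P 0.00319, FDR 0.816), and the difference of its age effect was 2.39 (SE 0.465, edgeR P 0.000192, FDR 0.478). That difference was called by DESeq2 (log2 difference 2.45, FDR 0.000396). Enterocyte markers summed to 2797, 2571 and 7044 CPM in young ISC and to 1269, 3881 and 1761 CPM in aged ISC. Among young ISC, Y3 had the most of both these markers and *Hes2*. Among aged ISC, O3 had the most of these markers and the least *Hes2*. The part of enterocytes in the level of *Hes2* was not tested. The other gene picked in ISC, *Adam17*, had a log2 fold change of -0.27 (edgeR P 0.141).

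In AE, *Dlk1* had the lowest P of the Notch list, with each aged library below each young one (log2 fold change -2.28, SE 0.666, edgeR P 0.00787, FDR 0.833), from 208 counts in young and 18 in aged AE. *Dtx4* came next at -0.41 (edgeR P 0.108). Of the secretory factors, *Klf4* had a log2 fold change of 0.48 (edgeR P 0.0467, FDR 0.833). For the difference of age effects the secretory factors picked were *Klf4* (0.65, edgeR P 0.0348) and *Pax6* (-1.42, edgeR P 0.0923), and the Notch gene after *Hes2* was *Dtx1*, which had 0 counts in aged ISC. In ISC the picked factors were *Pax6* (0.47, edgeR P 0.157) and *Spdef* (0.48, edgeR P 0.16). FDR of these values was 0.833 or above.

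Some of these genes share exonic bases with a neighbour on the other strand. Whether the counting used strand is not stated in the sources used here, so reads of a gene and its antisense neighbour may not be told apart. *Notch1* shares 1068 exonic bases with *0610009E02Rik*, which held 4 to 75 counts in a library. It shares a further 414 with *Gm13568*, which held 0 to 3 counts where *Notch1* held 35 to 3483. *Notch2* shares 541 with *Gm42820* on its own strand, which held 1 to 41 counts and which strand cannot set apart. *Dll1* shares 867 with *A930024N18Rik*, which held 16 to 200 counts where *Dll1* held 533 to 5301. *Dll4* shares 214 with *Gm14207*. In ISC *Gm14207* held 44 to 138 counts where *Dll4* held 201 to 783, and in AE 49 to 563 where *Dll4* held 225 to 2657. The part of *Gm14207* in the level of *Dll4* was not tested. *Neurog3* shares 273 with *Fam241b*, which the counts name *2010107G23Rik*. The last held 180, 186 and 114 counts in the aged AE libraries in which *Neurog3* had 0, 0 and 2.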

How the data were processed

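RNA of sorted ISC and AE was sequenced as 12 single-end libraries after poly(A) selection with a directional kit. The deposited counts are raw: per the labels and the methods of the study, the authors trimmed adaptors with Trim Galore 0.4.4, mapped reads to GRCm38 with HISAT2 2.1.0, and counted uniquely mapped reads in SeqMonk over the exons of merged transcripts, which gave 34245 genes. A gene with a near-identical copy loses reads in such counting. A second deposited table, which holds the authors' own comparisons and scaled log2 values, was not used.

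Columns were placed in the group that their own names spell, since the code and the remaining words contradict each other in 8 of 12 sample titles. Codes such as Y1 and O1 are those of the columns. The methods of the study list 3 ages in each cohort, so the 3 libraries of a group were taken as coming from 3 mice, although the labels tie no library to a mouse. Deviations from the group means correlated at 0.213 to 0.431 in the 6 pairs of ISC and AE libraries with the same code. In the 12 pairs with different codes they correlated at -0.376 to 0.11. Libraries with the same code thus varied together, and a shared mouse and shared handling cannot be told apart here. The reported values come from fits on group alone, and a fit with the code as replicate block was run as an alternative. Log2 CPM of libraries of a group correlated at 0.967 to 0.983.

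The tools were edgeR 4.0.16, limma 3.58.1 and DESeq2 1.42.0 in R 4.3.3. A comparison took the genes whose counts summed to 10 or more over its libraries, scaled them by TMM and fitted the groups compared. The quasi-likelihood test of edgeR gave P, which was adjusted by Benjamini-Hochberg over all genes tested, with an FDR threshold of 0.05. SE is the log2 fold change over the square root of F. The floor is 3 counts in a library, and intervals of count ratios are exact and cover counting error only. CPM are scaled by TMM over the 12 libraries, log2 CPM has a prior count of 2, and CPM per kb uses the union of exons in GENCODE M21, whose gene coordinates are given. Promoter sequences are those of RefSeq. The test was checked on simulated data.

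The 10 genes, the lists and the marker genes were chosen with earlier results of these data known. The naming rule took, per list, the 3 largest mean log2 fold changes in each direction among genes called alike at both ages, and for age the 2 lowest P. Some genes of the lists are counted but not reported here by name. Genes named beside these were chosen after their values were seen. Alternatives were DESeq2, RLE and upper-quartile scaling, no filter beyond 1 count, filterByExpr, a fit on the 4 groups, the replicate block, and leaving out each library.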

Additional observations from a re-analysis of the deposited data

Results flagged for a closer look

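*Neurog3* was the 1 gene of the 10 with an unadjusted P under 0.05 in the test of the difference of the age effect. Over all genes tested, 757 of 17377 had such a P. The log2 difference, age effect in AE minus that in ISC, was -3.72 (95% interval -6.93 to -0.52, edgeR P 0.0262, FDR 1.00), from a log2 fold change of -3.71 in AE and 0.21 in ISC. In AE it rests on 57 counts in young and 2 in aged libraries. Without Y2 of young AE the difference was -2.65 (P 0.0645), and over the leave-one-out fits it lay between -7.44 and -2.65.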

How the results depend on the processing

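Of the counts of called genes in the 10 genes and both lists, both directions together, 203 of the values under an alternative stayed within 1.5 times the reported count, and 1 did not: DESeq2 called 1 other Notch gene, *Hes2*, for the difference of the age effect, where edgeR called 0. In the comparisons with age the reported counts were 0, and a value that stayed at 0 was counted among the 203. Such values show only that no gene was newly called. By direction, the 2 secretory factors lower in young AE became 4 with the replicate block and 6 without Y1 of AE, the 13 Notch genes lower there became 8 without Y2 of ISC, and the 2 of the 10 genes higher in aged AE became 1 with upper-quartile scaling and without O3 or O5 of ISC or O1 or O3 of AE. The replicate block changed the call of none of the 10 genes, and with it the log2 difference of *Neurog3* was -3.50 (FDR 0.693). Of the values of single genes, 631 kept direction and call, 23 kept direction and lost a call, which concerned *Rbpj* and *Hes6* in young and *Jag1*, *Dll4* and *Hes6* in aged mice, and 25 changed sign, none of them called. The cause was not tested.

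For *Hes1*, aged against young in AE, the value was 0.0026 with DESeq2, 0.0041 with RLE scaling and 0.0026 with no filter. Leaving out single libraries, the range for AE against ISC in aged mice was -0.23 to 0.10 for *Dll1*. For age in ISC it was -0.17 to 0.27 for *Hes6*, -0.017 to 0.26 for *Hes1*, -0.24 to 0.59 for *Neurog3*, -0.14 to 0.36 for *Notch1* and -0.18 to 0.24 for *Notch2*. For age in AE it was -0.23 to 0.36 for *Hes1*, -0.18 to 0.033 for *Dll4*, -0.28 to 0.22 for *Atoh1*, -0.22 to 0.14 for *Jag1* and -0.22 to 0.11 for *Rbpj*. For the difference of the age effect it was -0.16 to 0.28 for *Hes6* and -0.41 to 0.20 for *Hes1*.

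Over all genes, for the difference of the age effect DESeq2 called 40 genes higher and 3 lower, where edgeR called 1. Upper-quartile scaling moved the median log2 fold change of all genes in young AE against ISC from 0.15 to 0.03. With 3 libraries a group, changes by age that lie within the intervals given are not excluded. Any change of *Neurog3* within AE libraries at the floor was not detectable.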

Other observations

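The markers of Paneth and tuft cells were summed as well. The 8 Paneth cell markers summed to between 591 and 1728 CPM in ISC and to between 54.1 and 239 CPM in AE, against the direction of *Atoh1*. The 8 tuft cell markers summed to between 127 and 441 CPM in ISC and to between 350 and 1074 CPM in AE, with Y1 of young AE the highest. Leukocyte markers summed to at most 35.7 CPM in any library.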
